A study of Mus musculus with 2 samples.

Results

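The BCL2 family of cell death regulators was followed here through 10 member genes, Bcl2, Bcl2l1, Mcl1, Bax, Bak1, Bid, Bcl2l11, Bcl2l13, Pmaip1 and Bmf, taken by symbol from the 32285 genes of the count files. All 10 symbols were found, each on 1 row. Nuclei of interscapular brown adipose tissue (BAT), the heat-producing fat depot between the shoulder blades, were sequenced in droplets (snRNA-seq) with a 3′ kit that tags every captured transcript with its own short barcode, the unique molecular identifier (UMI), so that UMIs count RNA molecules. There was 1 library from KO mice, which carry Adipoq-Cre and Srsf1 flox/flox and so lose the splicing factor SRSF1 where the adiponectin promoter is active, chiefly in mature adipocytes. There was 1 library from Srsf1 flox/flox mice without Cre, called WT, and both groups were 8 weeks old. How many mice went into a library is not given in the sources used here. With 1 library per genotype no test was possible, so every difference between KO and WT is also a difference between 2 libraries, and the intervals given cover counting error only.

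BCL2 family proteins meet at the outer mitochondrial membrane and decide whether it becomes permeable and releases cytochrome c. The guardians BCL2, BCL-XL (gene Bcl2l1) and MCL1 bind and hold back the pore formers BAX and BAK (Bak1), and the BH3-only proteins BID, BIM (Bcl2l11), NOXA (Pmaip1) and BMF carry stress signals that activate the pore formers or occupy the guardians. BCL2L13 is a mitochondrial outer membrane protein known as a mitophagy receptor, and its part in cell death is less settled.

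The short BH3 stretch is the shared feature through which these proteins bind each other. In the annotated reading frames a leucine codon, 3 further codons, a glycine or alanine codon, an aspartate codon and a codon for aspartate, glutamate, glycine or glutamine followed each other exactly 1 time in each of the 8 members shown here, and in Bcl2l13 not at all. At its glycine or alanine position the pattern takes in an alanine codon seen there only in Bmf. At its last position it takes in a glutamine codon seen there only in Bmf and a glycine codon only in Mcl1. A match in each member is thus a description, and its absence in Bcl2l13 does not show that a BH3 stretch is missing there. The 21 bases of coding sequence are given 5′ to 3′ on the gene's strand, with the leucine codon and the glycine or alanine and aspartate codons in capitals, to show what a guardian (Bcl2), a pore former (Bax) and the BH3-only genes have in common.
Bcl2: CTCcgccgggctGGGGATgac
Bcl2l1: CTGagagaggcaGGCGATgag
Mcl1: CTGcggcgcgtgGGCGACggc
Bax: CTCcggcgaattGGAGATgaa
Bak1: CTTgctctcatcGGAGATgat
Bid: CTCgcccaaataGGCGATgag
Bcl2l11: CTGcggcggatcGGAGACgag
Bmf: CTTcagtgtattGCAGACcag
These stretches lie in the coding exons, on GRCm38 at chr1:106712581-106712601 for Bcl2, chr7:45466003-45466023 for Bax and chr6:120897295-120897315 for Bid, all on the minus strand. At the level of bases, the Bcl2 stretch was matched at 15 of 21 positions by that of Bax, at 12 by that of Bid and at 9 by that of Bmf. The counts are per gene, so they do not tell apart spliced forms of a member, such as the long and short forms of Bcl2l1.

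Classes of nuclei were called from summed marker genes, and a class is a range of marker scores and not a cell type. Adipocyte-like nuclei numbered 4657 in WT, with a median of 6935 UMIs, and 1793 in KO, with a median of 6501. Of these, 10.6% in WT and 11.5% in KO lay near the limit of the class. All 10 adipocyte markers, among them Plin1 (a lipid droplet coat protein) and Pparg (the master regulator of fat cells), were detected in both libraries. A further 4 classes had at least 50 nuclei in each library: adipocyte stem and progenitor cells (ASPC-like, 226 in WT and 1627 in KO), endothelial-like (1667 and 792), mural-like (299 and 202) and macrophage-like or other myeloid nuclei (343 and 2152). The targeted gene, Srsf1, stood at 184 UMIs per 1000000 UMIs of the class (CPM) in WT and 61.0 CPM in KO adipocyte-like nuclei, and at 125 and 90.2 CPM in endothelial-like nuclei; 3′ reads can also come from parts of the gene outside the deleted segment. The libraries differed in other ways too. WT held 12846 and KO 11495 barcodes, 52 of them the same sequence, mitochondrial RNA made up a median of 1.10% of UMIs in WT and 0.0489% in KO, and a doublet caller marked 0 nuclei in WT and 2211 in KO, so doublets were kept. Adipocyte markers summed to 5351 CPM in WT and 3493 CPM in KO endothelial-like nuclei, which should lack them, and how much of a member's count came from free RNA was not tested.

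Bcl2, a guardian, had the largest KO to WT ratio of any member in adipocyte-like nuclei under these class calls; in classes taken from clusters its log2 ratio, 2.76, was beside that of Bid, 2.77. Bcl2 spans 176 kb on chromosome 1 (chr1:106538178-106714274, minus strand). WT adipocyte-like nuclei held 951 Bcl2 UMIs, or 22.9 CPM (95% Poisson interval 21.5 to 24.4), and KO adipocyte-like nuclei 3235 UMIs, or 225 CPM (217 to 233). The KO level was 9.80-fold that in WT, a log2 ratio of 3.29 (3.19 to 3.40), larger than that of 97.5% of the 15036 genes with at least 50 UMIs over both libraries. The antisense gene D630008O14Rik, which overlaps Bcl2 on the other strand, had 35 UMIs in WT and 12 in KO. The share of nuclei with at least 1 Bcl2 UMI was 9.66% in WT and 48.1% in KO. After each nucleus was thinned to 1000 UMIs, which left out 174 WT and 30 KO nuclei, the shares were 2.05% and 16.6%. Nuclei with 3 or more Bcl2 UMIs made up 2.23% of the class in WT and 23.5% in KO, while the highest count in any nucleus was alike, 21 in WT and 25 in KO. Even in KO, 51.9% of adipocyte-like nuclei had no Bcl2 UMI.

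The other guardians differed less. Bcl2l1 stood at 61.4 CPM (2546 UMIs) in WT and 97.7 CPM (1405 UMIs) in KO, a log2 ratio of 0.67 (0.57 to 0.76). Mcl1, whose protein turns over quickly, stood at 50.7 CPM (2101 UMIs) in WT and 84.9 CPM (1222 UMIs) in KO, a log2 ratio of 0.75 (0.64 to 0.85). Neither reached 2-fold at full depth, Bcl2l1 was at 1.00 after thinning, and 72.9% and 75.2% of genes, respectively, had a smaller ratio.

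Of the pore formers, Bax was higher and Bak1 lower in KO. Bax had 297 UMIs (7.16 CPM) in WT and 231 (16.1 CPM) in KO, a log2 ratio of 1.16 (0.91 to 1.42), which was 0.84 as a mean over nuclei and 0.67 when Ebf1 was kept among the lymphocyte markers of the class calls. Bak1 had 289 UMIs (6.97 CPM) in WT and 54 (3.75 CPM) in KO, a log2 ratio of -0.89 (-1.34 to -0.47), short of 2-fold. Both genes were sparse: after thinning, 0.825% of WT and 2.33% of KO nuclei held a Bax UMI, and 0.647% and 0.227% a Bak1 UMI. All 9200 bases of Bak1 lie within Ggnbp1 on the opposite strand, which stood at 42.1 CPM in WT and 19.1 CPM in KO, so the Bak1 counts are uncertain where strand was not used in counting.

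Bid was the BH3-only member with the largest difference. It links death receptors to mitochondria once caspase-8 has cut it. WT adipocyte-like nuclei had 275 Bid UMIs (6.63 CPM) and KO nuclei 560 (38.9 CPM), a 5.87-fold difference and a log2 ratio of 2.55 (2.34 to 2.77), above that of 95.7% of genes. The shares of thinned nuclei with a Bid UMI were 0.602% in WT and 3.35% in KO. Bid and Bcl2l13 lie tail to tail on chromosome 6 and overlap by 913 bases on opposite strands (Bid at chr6:120891930-120916853, Bcl2l13 at chr6:120836212-120892842), where 3′ reads can fall. Bcl2l13 itself did not move with Bid: it had 9729 UMIs (235 CPM) in WT and 2981 (207 CPM) in KO, a log2 ratio of -0.18 (-0.24 to -0.12).

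The remaining BH3-only members were rare in adipocyte-like nuclei. Bcl2l11 had 174 UMIs in WT and 100 in KO, 4.20 and 6.95 CPM, a log2 ratio of 0.73 (0.36 to 1.09). Its sign depended on the class calls, at 1.41 without a margin between classes and -0.73 in classes taken from clusters. Pmaip1 had 12 and 11 UMIs and Bmf 28 and 12, both under the minimum of 50. Of the 8 members above that minimum, 3 (Bcl2, Bid and Bax) were at least 2-fold higher in KO and 0 were at least 2-fold lower, where 19.1% of all 15036 genes were at least 2-fold higher and 18% at least 2-fold lower. The median log2 ratio of the 8 members was 0.74, and that of all genes 0.07.

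**Figure D1:**
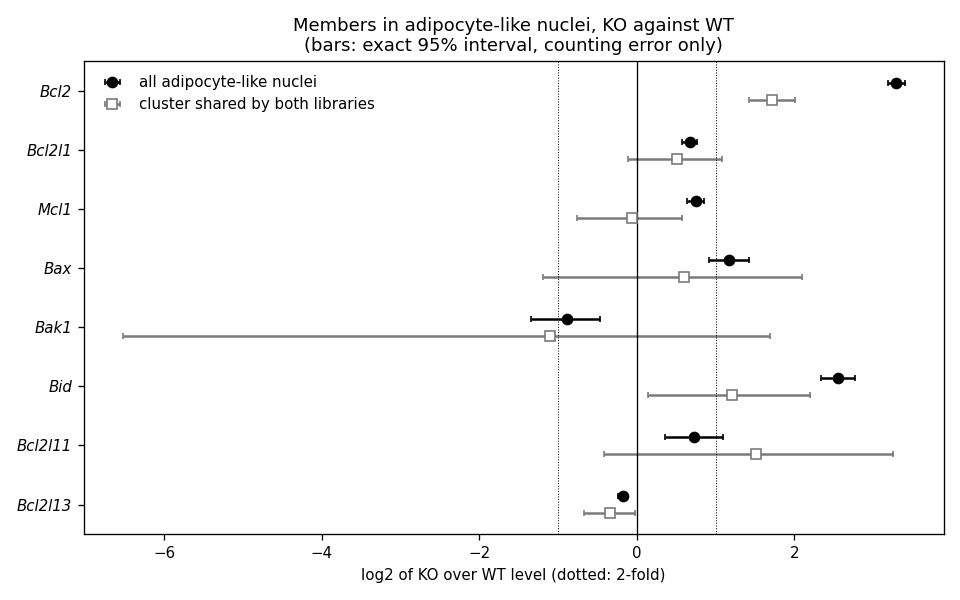
Log2 ratio of KO over WT level for the 8 members with at least 50 UMIs in adipocyte-like nuclei, for all such nuclei (filled circles) and for the cluster that held nuclei of both libraries (open squares), with exact 95% intervals for counting error. Bcl2 at 3.29 and Bid at 2.55 stand farthest to the right for all nuclei, and Bcl2 at 1.71 stands farthest to the right in the shared cluster.

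The adipocyte-like nuclei of the libraries fell mostly into different clusters, and the Bcl2 difference varied between clusters. The clustering made no correction for library, so nuclei of unlike kind and a difference between libraries cannot be told apart here. A cluster with endothelial markers held 1602 WT and 66 KO nuclei, another 26 and 1011, and a smaller one 209 and 57. Clusters made without the member genes put 3488 of the WT nuclei (74.9%) in one cluster and 1549 of the KO nuclei (86.4%) in another, and only 1 cluster held at least 50 adipocyte-like nuclei of each library, with 239 from WT and 59 from KO. Bcl2 stood at 7.09 CPM (6.12 to 8.16) in the leading WT cluster, 99.6 CPM (87.8 to 113) in the WT nuclei of the shared cluster, 226 CPM (218 to 235) in the leading KO cluster and 327 CPM (278 to 381) in the KO nuclei of the shared cluster. Within the shared cluster KO was thus 3.28-fold WT, a log2 ratio of 1.71 (1.42 to 2.00), against 3.63 (3.51 to 3.75) in the nuclei outside it. These sets were chosen after the values had been seen. Of the 951 Bcl2 UMIs of WT, 194 lay in the leading WT cluster and 254 in the shared cluster. The rest lay in WT nuclei of other clusters, whose level is not given here.

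**Figure D2:**
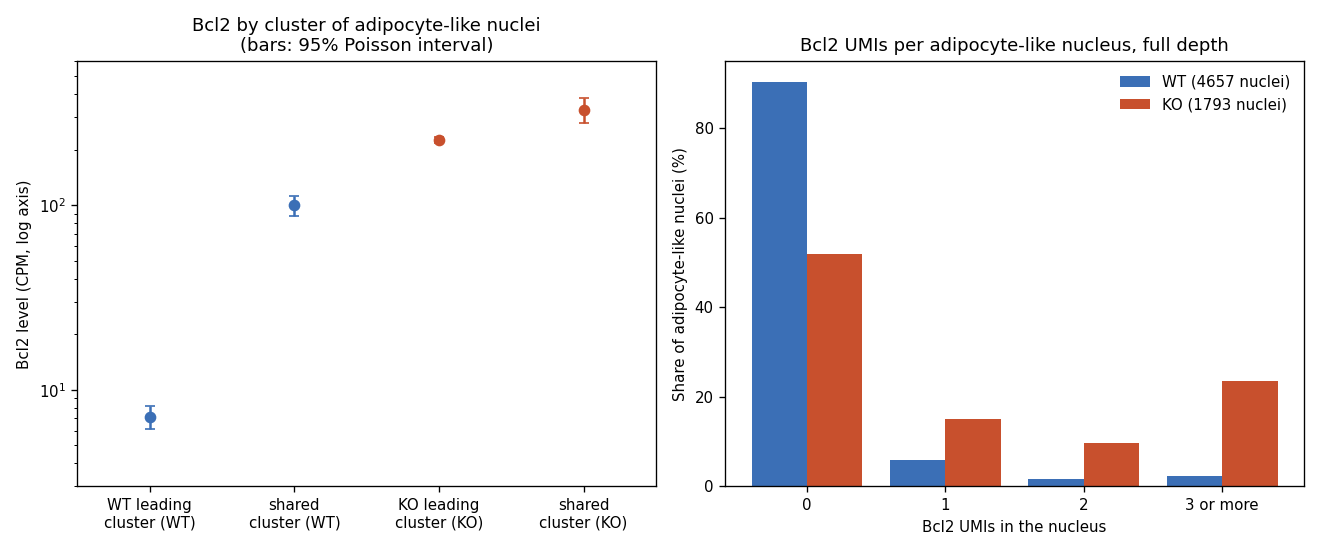
Left, Bcl2 level in CPM on a log axis in the leading cluster of each library and in the WT and KO nuclei of the shared cluster, with 95% Poisson intervals; right, share of adipocyte-like nuclei by their number of Bcl2 UMIs. The 4 levels run from 7.09 to 327 CPM with no overlap of intervals, and nuclei with 3 or more UMIs make up 2.23% of WT and 23.5% of KO.

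The clusters differed in fat cell markers. The white adipocyte markers Slc7a10 (an amino acid transporter), Lep (the hormone leptin), Agt, Ptger3, Npr3 and Nnat summed to 206 CPM in the leading WT cluster, 2450 CPM in the WT nuclei of the shared cluster, 1083 CPM in the leading KO cluster and 5147 CPM in the KO nuclei of the shared cluster. Between the 2 sets of each library, Bcl2 was thus higher in the set with the higher sum. In the leading WT cluster and the WT part of the shared cluster, Slc7a10 stood at 9.09 and 484 CPM and Nnat at 38.1 and 1375 CPM. Single markers differed between the leading WT and leading KO clusters. Slc7a10, Lep, Ptger3 and Npr3 were higher in KO, with Npr3 alone at 677 CPM. Nnat stood at 38.1 and 36.8 CPM and Agt at 0.329 and 0.257 CPM. The 7 brown adipocyte markers, which include Ucp1, the uncoupling protein of heat production, summed to 12832, 4869, 1875 and 200 CPM, in the same order of sets as the white sums. When all adipocyte-like nuclei were instead divided by their white marker UMIs, Bcl2 was at 11.5, 11.6 and 37.0 CPM in WT nuclei with 0, 1 to 2 and 3 or more, and at 117, 162 and 272 CPM in KO nuclei, with median depths of 5940.5, 6948 and 9186 UMIs in WT and 4850, 5392 and 8303 in KO. KO nuclei without a white marker UMI therefore had a higher Bcl2 level than WT nuclei with 3 or more, with intervals of 104 to 131 and 34.3 to 39.9 CPM. Divided by brown marker UMIs, the 26 WT nuclei with 1 to 2 had Bcl2 at 213 CPM (119 to 352). That level rested on 15 UMIs at a median depth of 981 UMIs. WT nuclei with 3 or more brown marker UMIs were at 22.6 CPM. KO nuclei with 0, 1 to 2 and 3 or more were at 268, 296 and 207 CPM. The part of the marker difference in the KO against WT ratio was not tested.

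The other members followed the shared cluster less clearly. Bid stood at 11.4 CPM (29 UMIs) in its WT and 26.2 CPM (13 UMIs) in its KO nuclei, a log2 ratio of 1.20 (0.14 to 2.19). Bcl2l1 and Mcl1 had log2 ratios of 0.50 (-0.11 to 1.08) and -0.06 (-0.76 to 0.57) there. Bax, with 17 and 5 UMIs, could not be told from no difference, 0.60 (-1.20 to 2.09).

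Markers of other cells in the adipocyte-like nuclei were compared, since Bcl2 is abundant in lymphocytes. The 8 macrophage markers were all detected and summed to 187 CPM in WT and 212 CPM in KO, and the 8 ASPC markers to 161 and 196 CPM. Of 13 lymphocyte markers, 12 were detected in each library, Cd3g being at 0 UMIs in WT and Pax5 in KO, and the sum was 14.6 CPM in WT and 44.3 CPM in KO. In lymphocyte-like nuclei themselves the same markers summed to 6810 CPM in WT and 6175 CPM in KO beside Bcl2 levels of 1259 and 998 CPM. Endothelial markers went the other way, at 288 CPM in WT and 53.0 CPM in KO.

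The balance of Bcl2 against the pro-death members was then taken as the ratio of Bcl2 UMIs to the summed UMIs of Bax, Bak1, Bid, Bcl2l11, Pmaip1 and Bmf. The ratio counts RNA molecules and not proteins, and its change between libraries does not depend on total depth. Gene length cancels only if each gene was captured alike in both libraries, which was not tested. Bcl2 spans 176 kb and Bax 5.20 kb, and it is not stated if reads in introns counted. The pro-death sum itself was 25.9 CPM (1075 UMIs) in WT and 67.3 CPM (968 UMIs) in KO. Bid made up 25.6% of that sum in WT and 57.9% in KO, while Bak1 went from 26.9% to 5.58%, Bax from 27.6% to 23.9% and Bcl2l11 from 16.2% to 10.3%. There were 0.885 Bcl2 UMIs per pro-death UMI in WT and 3.34 in KO, a log2 ratio of ratios of 1.92 (1.75 to 2.08), so Bcl2 differed by more than the pro-death sum did. Bcl2l1 went from 2.37 to 1.45 per pro-death UMI, -0.71 (-0.87 to -0.55), and Mcl1 from 1.95 to 1.26, -0.63 (-0.79 to -0.47), so both were lower in KO. Within the shared cluster the Bcl2 ratio went from 3.74 to 6.75, a log2 ratio of ratios of 0.85 (0.09 to 1.65), resting on 68 and 24 pro-death UMIs.

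**Figure D3:**
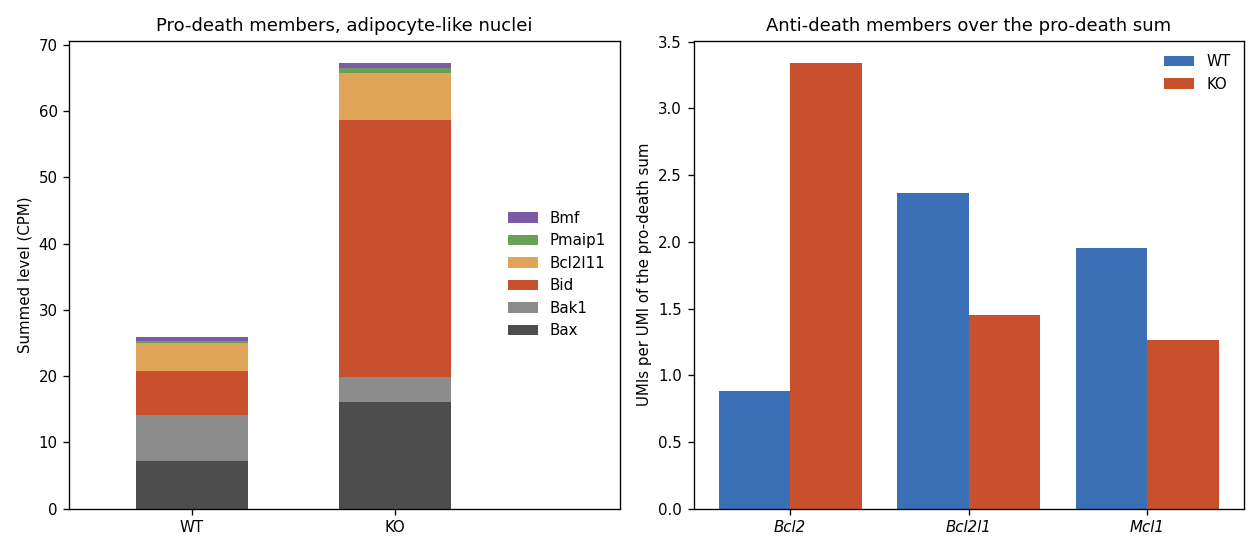
Left, stacked levels in CPM of the 6 pro-death members in adipocyte-like nuclei of each library; right, UMIs of Bcl2, Bcl2l1 and Mcl1 per UMI of that sum. The sum is 25.9 CPM in WT and 67.3 CPM in KO, most of the added height being Bid, and of the 3 guardians only Bcl2 has a higher ratio in KO, 3.34 against 0.885.

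At full depth 348 KO adipocyte-like nuclei held both a Bcl2 and a pro-death UMI, out of 601 with a pro-death UMI and 863 with a Bcl2 UMI, and in WT 149 held both, out of 837 and 450. A Bcl2 UMI was thus found in 57.9% of KO nuclei with a pro-death UMI and 43.2% of those without, and in 17.8% and 7.88% in WT, shares that were not matched for depth. After thinning, 27 of 1763 KO nuclei held both, 266 Bcl2 alone and 89 a pro-death UMI alone, and in WT 5, 87 and 102 of 4483 nuclei. Of thinned KO nuclei with a pro-death UMI 23.3% also held a Bcl2 UMI, and of those without one 16.2%. In WT these shares were 4.67% and 1.99%, the former resting on 5 nuclei.

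In the other classes the Bcl2 ratio was below 2-fold. ASPC-like nuclei had 169 CPM in WT (188 UMIs) and 181 CPM in KO (1738 UMIs), a log2 ratio of 0.10 (-0.12 to 0.32). This depended on the class calls, at 1.32 in classes taken from clusters and 1.14 with Ebf1 kept. Endothelial-like nuclei had 104 and 144 CPM, a ratio of 0.47 (0.26 to 0.68), mural-like 115 and 189 CPM, 0.72 (0.37 to 1.08), and myeloid nuclei 92.4 and 139 CPM, 0.59 (0.35 to 0.84), all 3 with intervals above 0. With the endothelial level subtracted, mural-like nuclei were at 2.12. Under these class calls adipocyte-like nuclei had in WT the lowest Bcl2 level of the 5 classes, below myeloid nuclei with intervals that did not overlap, whereas in KO they had the highest, ahead of mural-like nuclei (160 to 222 CPM), whose interval overlapped theirs. Thinned shares of nuclei with a Bcl2 UMI were 17.4% in WT and 14.6% in KO ASPC-like nuclei, and 7.34% and 11.7% in endothelial-like nuclei. In classes with fewer than 50 nuclei in a library, Bcl2 was at 1259 and 998 CPM in lymphocyte-like nuclei (45 and 123) and at 380 and 602 CPM in Schwann-like nuclei (66 and 24), and these were not compared between libraries.

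Bcl2l1 was highest in endothelial-like nuclei, with 541 CPM in WT and 609 CPM in KO, a log2 ratio of 0.17 (0.07 to 0.27), followed in WT by myeloid and mural-like nuclei at 229 and 225 CPM, which did not differ beyond counting error. Mcl1 was highest in myeloid nuclei, 231 CPM in WT and 148 CPM in KO, a ratio of -0.64 (-0.80 to -0.47). It was lower in KO also in ASPC-like nuclei, 98.2 against 62.9 CPM, -0.64 (-0.94 to -0.34), and in endothelial-like nuclei, 173 against 103 CPM, -0.75 (-0.97 to -0.53), so the Mcl1 ratio of adipocyte-like nuclei had the opposite sign to those of 3 other classes. Bcl2l13 was highest in adipocyte-like nuclei in both libraries, at 235 and 207 CPM, and lay between 52.9 and 68.0 CPM in the 4 other classes.

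Among pro-death members, 3 log2 ratios passed 2-fold in ASPC-like nuclei. Bmf, a sensor of lost anchorage, had 1 UMI in WT and 82 in KO (0.901 and 8.56 CPM), a ratio of 3.25 with an interval of 0.73 to 8.57. Bcl2l11 had 7 and 160 UMIs (6.31 and 16.7 CPM), 1.41 (0.33 to 2.74), and Bid 4 and 90 UMIs (3.60 and 9.40 CPM), 1.38 (-0.02 to 3.29), so that the few UMIs of the 226 WT nuclei limited all 3. After thinning, Bmf was at 0.65 and Bid at -0.48, and Bcl2l11 was at 0.35 in classes taken from clusters. In this class 9 members had at least 50 UMIs, and 16.2% of all genes were past 2-fold either way. Macrophage markers in ASPC-like nuclei, all 8 detected, summed to 146 CPM in WT and 362 CPM in KO, and their part in these ratios was not tested.

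In myeloid nuclei Bcl2l11, whose product BIM is known for removing surplus immune cells, was the 1 member of 10 past 2-fold, where 15% of all genes were past 2-fold either way. It had 45 UMIs in WT and 766 in KO, 27.2 and 68.1 CPM, a log2 ratio of 1.33 (0.89 to 1.79), and 0.72 in classes taken from clusters. Bid went the other way there, with 51 and 189 UMIs, 30.8 and 16.8 CPM, -0.87 (-1.33 to -0.40), as did Bcl2l1 at 229 and 185 CPM, -0.30 (-0.46 to -0.14), though Bcl2l1 was at 0.45 in classes taken from clusters. Bid thus had its highest WT level in myeloid nuclei and its highest KO level in adipocyte-like nuclei among the 5 classes. Lymphocyte markers summed to 225 CPM in WT and 359 CPM in KO myeloid nuclei, and their part was not tested. No member with at least 50 UMIs was past 2-fold in endothelial-like nuclei (7 members) or mural-like nuclei (4 members), where 15% and 11.8% of all genes were.

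**Figure D4:**
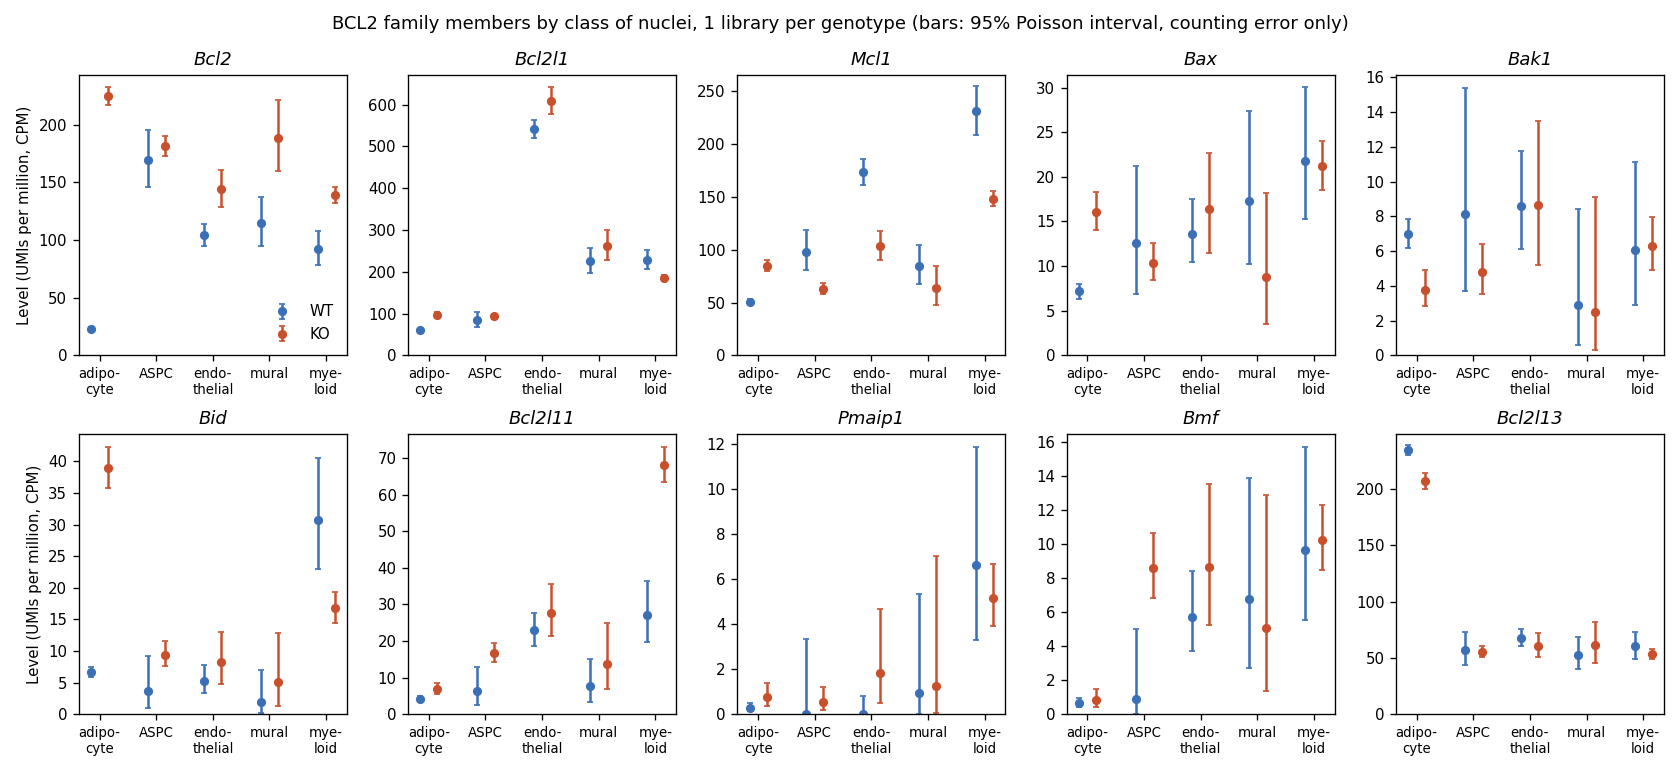
Level of each member in CPM by class of nuclei, WT in blue and KO in red, with 95% Poisson intervals for counting error. Adipocyte-like Bcl2 moves from the lowest of the 5 classes in WT (22.9 CPM) to the highest in KO (225 CPM), Bcl2l13 is highest in adipocyte-like nuclei of both libraries, and Bcl2l11 is highest in KO myeloid nuclei (68.1 CPM).

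Pmaip1 was the rarest member. It had 0 UMIs in WT ASPC-like and WT endothelial-like nuclei, where 3 counts would have been 2.70 and 0.660 CPM, and 5 and 4 UMIs in KO. In myeloid nuclei it had 11 UMIs in WT and 58 in KO, 6.64 and 5.16 CPM, a log2 ratio of -0.36 (-1.31 to 0.71). Dendritic-like nuclei had 3 Pmaip1 UMIs in WT and 60 in KO, or 60.8 CPM in KO, from 27 and 194 nuclei.

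The genes whose levels ran most like those of Bcl2 over the 10 points formed by 5 classes in 2 libraries, on the log2(CPM + 1) scale and among 13587 genes, were Pam (Pearson's r 0.98), Slc7a1 (0.96), Rusc2 (0.96), Ephx1 (0.94) and B230216N24Rik (0.92). Pam, which encodes an enzyme that amidates peptide hormones, stood at 59.1 CPM in WT and 552 CPM in KO adipocyte-like nuclei. Slc7a1, a transporter of cationic amino acids, stood at 3.11 and 60.5 CPM. The points share 2 libraries, so these correlations are a description. Of the other members with enough counts, none was above 0.36 (Bax), and Bcl2l13 was at -0.47.

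Genes around the family were read in the same adipocyte-like nuclei. Of 49 genes in 7 lists, 41 had at least 50 UMIs over both libraries, 8 were at least 2-fold higher in KO and 5 at least 2-fold lower, with a median log2 ratio of 0.34 beside 0.07 for all genes, of which 19.1% were higher and 18% lower by that measure. Among other BCL2 family genes, 3 of 8 were higher and 1 lower. Bcl2l2, which encodes the guardian BCL-W, went from 9.34 to 34.8 CPM, with a log2 ratio of 1.90 (1.70 to 2.09), and Bbc3, which encodes the BH3-only protein PUMA, from 5.26 to 14.2 CPM, 1.43 (1.15 to 1.71). Bok was at 0.989 and 2.22 CPM, 1.17 (0.46 to 1.87), on 41 and 32 UMIs. Bnip3, a mitophagy receptor, went from 371 to 137 CPM, -1.44 (-1.51 to -1.37), while the related Bnip3l stood at 62.9 and 79.7 CPM, 0.34. Bad and Bcl2l12 had ratios of 0.06 and -0.09.

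Of the caspases and the apoptosome, 2 of 7 genes were higher and 1 lower. The initiator Casp9 went from 7.21 to 16.1 CPM, with a log2 ratio of 1.15 (0.90 to 1.41), and the executioner Casp6 from 5.72 to 12.4 CPM, 1.11 (0.83 to 1.40). Apaf1, the scaffold that cytochrome c binds, stood at 14.9 and 27.7 CPM, 0.89, Casp8 at 22.1 and 30.8 CPM, 0.48, and Casp2 had a ratio of -0.23. Cycs, which encodes cytochrome c itself and is also a carrier of the respiratory chain, went from 113 to 28.7 CPM, -1.98 (-2.13 to -1.84). Of the other proteins released from mitochondria, 1 of 4 genes was past 2-fold, Endog at -1.23 (-1.82 to -0.69). Aifm1, Diablo and Htra2 had ratios of -0.66, -0.31 and 0.26, and the 3 Vdac genes lay between -0.35 and 0.36.

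Of 6 inhibitors of apoptosis, 2 were higher. Birc3 went from 20.3 to 52.0 CPM, 1.36, and Birc5, known from dividing cells, had 31 and 24 UMIs, 1.16 (0.33 to 1.97). The abundant Birc6, Xiap and Cflar had ratios of 0.08, 0.25 and 0.47. None of the 5 death receptor and adaptor genes with at least 50 UMIs passed 2-fold, with Fas at -0.13, Ripk1 at 0.18 and Tnfrsf1a at 0.91. Among 8 known regulators of member transcription, Trp53, which encodes p53, an inducer of Bax, Bbc3 and Pmaip1, went from 15.4 to 55.0 CPM, 1.83 (1.68 to 1.99). Foxo1 went from 1399 to 527 CPM, -1.41 (-1.44 to -1.37), and Jun from 48.5 to 17.9 CPM, -1.43 (-1.63 to -1.25). Stat3 stood at 148 and 270 CPM, 0.87, Nfkb1 at 107 and 200 CPM, 0.90, and Foxo3 at 82.4 and 160 CPM, 0.96.

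**Figure D5:**
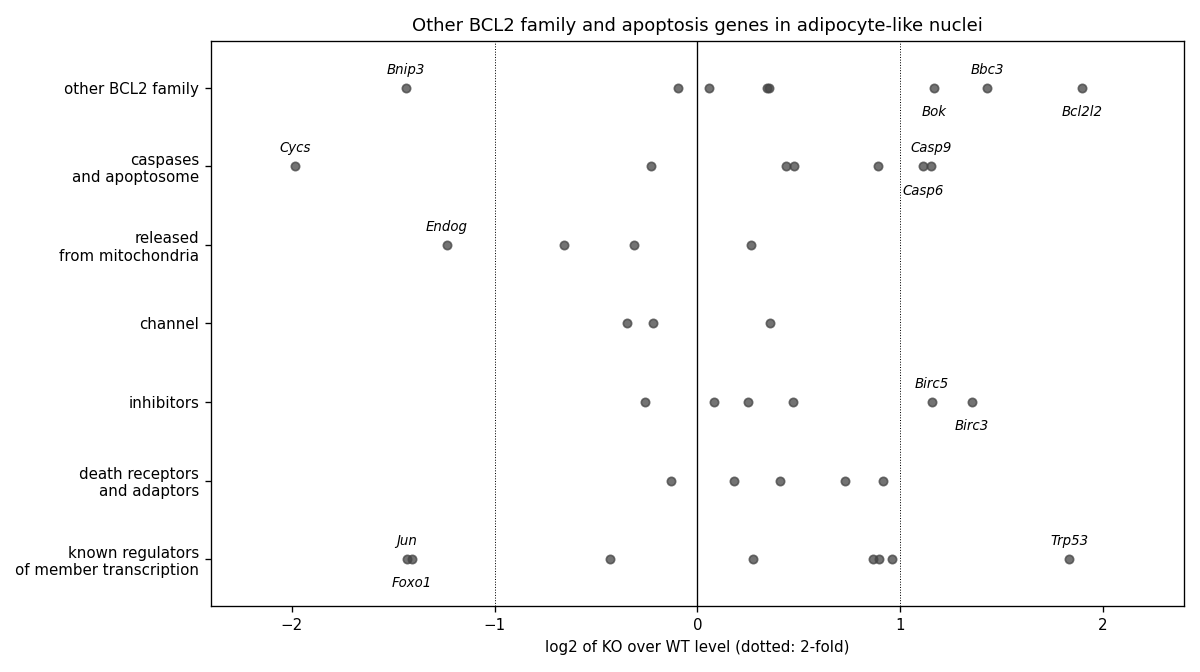
Log2 ratio of KO over WT level in adipocyte-like nuclei for the 41 genes with at least 50 UMIs of 7 lists around the BCL2 family, 1 point a gene, with those past 2-fold named. Every list has points on both sides of 0, from Cycs at -1.98 to Bcl2l2 at 1.90.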

How the data were processed

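The files deposited by the authors are matrices of UMI counts, genes by barcodes, 1 for each library and not normalized. Reads were aligned to GRCm38 (mm10 in the submitters' processing notes), and those notes give Cell Ranger 5.0.0, while the paper's methods give another version. It is not stated if reads in introns counted. The bulk RNA-seq and imaging of the study were not analysed here.

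A nucleus was used if at least 200 genes were detected and mitochondrial RNA made up at most 10% of its UMIs. Its log UMIs and log genes also both had to lie within 3 scaled median absolute deviations of the median of their library. The scaling was the usual one that matches a standard deviation for normal data. These filters left 12771 of 12846 barcodes in WT and 11378 of 11495 in KO. Total depth was 93102814 and 80090208 UMIs, with medians of 3428 and 4354.5 per kept nucleus. A nucleus took the class with the highest marker sum, scaled by the 99.9th percentile of that sum, if it had at least 3 marker UMIs, a scaled score of at least 0.1 and a margin over the next class of 5 times for adipocytes and 2 times for others; 5396 WT and 4436 KO nuclei stayed uncalled. The adipocyte margin, and leaving Ebf1 out of the lymphocyte markers because fat cells and their precursors also express it, were chosen after the data had been seen. Nuclei counted as near the limit had a score or a margin under 1.25 times the one required. For each class and library, UMIs were added up and expressed per 1000000 (CPM). Ratios carry exact 95% conditional binomial intervals, levels exact Poisson intervals, and a count of 0 is read against 3 counts; all cover counting error only. A gene was called past 2-fold with at least 50 UMIs over both libraries. Leiden clusters (2000 variable genes without the members, 30 components, 15 neighbours, resolution 1) were made with scanpy 1.11.5 in Python 3.11.15. The ratio and its interval were tested on simulated sums drawn with counting error only, the same error that the interval assumes. Variation between nuclei, mice or libraries was not simulated. Loci and coding sequences are from GENCODE release M21 on GRCm38; the stretch of Pmaip1 is not shown.

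The members, lists and rules were chosen with earlier results of these data known. A single gene of the lists is not reported here and enters no list count. Named genes are the 10 members, Srsf1, markers, list genes past 2-fold with up to 3 more per list by UMI count, and the 5 genes most like Bcl2 among those with at least 200 UMIs. Alternatives were other filters, margins, class calls, scalings, doublet removal, thinning and subtraction of the endothelial level.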

Additional observations from a re-analysis of the deposited data

Results flagged for a closer look

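Some members had KO to WT ratios of opposite sign in different classes, each with an interval off 0. With 1 library per genotype the difference between classes was not tested. The log2 ratio of Mcl1 was 0.75 in adipocyte-like nuclei, -0.64 in ASPC-like, -0.75 in endothelial-like and -0.64 in myeloid nuclei. That of Bid was 2.55 in adipocyte-like and -0.87 in myeloid nuclei. That of Bcl2l1 was 0.67 in adipocyte-like, 0.17 in endothelial-like and -0.30 in myeloid nuclei. In classes taken from clusters the last of these was not seen, since Bcl2l1 was at 0.16, 0.02 and 0.45 in the same order, and Mcl1 in the adipocyte-like nuclei of the shared cluster was at -0.06.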

How the results depend on the processing

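The log2 ratio of Bcl2 in adipocyte-like nuclei (3.29) stayed above 0 under every alternative that gave a value. It was 3.70 with fixed limits on nuclei, 3.00 with no filter, 2.64 with no margin, 3.76 with the margin doubled, 2.76 in classes taken from clusters and 3.48 as a mean over nuclei. Under the choices made after the data were seen, it was 2.59 with Ebf1 kept, 1.71 in the shared cluster alone and 3.63 with that cluster left out. The Bcl2 to pro-death ratio of ratios (1.92) was, in the same order, 2.36, 1.71, 1.26, 2.41, 1.46, 2.32, 1.74, 0.85 and 2.23. It was 3.22 with Bcl2l13 added to the pro-death sum, 2.42 with a geometric mean and 2.81 with Bax and Bak1 alone. The cause of these shifts was not tested. The 3 members past 2-fold became 5 with no margin (Bcl2l11 and Pmaip1 added) and 7 at 1.5-fold, Bak1 among them as lower in KO. They became 1 in the shared cluster, where fewer UMIs were counted. They were 4 after thinning (Bcl2l1 at 1.00) and with no minimum, and 2 as a mean over nuclei and with Ebf1 kept. The share of all genes under these settings is not given here, so these counts are not read as results about the members. Bid in ASPC-like nuclei reversed to -0.48 after thinning, with few UMIs left. Of 89 values for the 7 member and class pairs past 2-fold, 88 kept their sign and 78 had a log2 ratio of at least 1 in size, whatever their UMI count. Below 2-fold in the main analysis, Bcl2 in ASPC-like nuclei (0.10) was at 1.32 in classes taken from clusters, 1.14 with Ebf1 kept, -0.17 after thinning and -0.81 with the endothelial level subtracted, and Bcl2l1 in myeloid nuclei (-0.30) was at 0.45 in classes taken from clusters. Subtracting the endothelial level gave no value for 8 of 10 members in adipocyte-like nuclei, Bcl2 among them, because that level was higher, so neither the count nor the balance could be given; Bid was at 4.51. The part of free RNA in the low WT levels was not tested. No paired analysis was possible because each genotype had 1 library.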
